A study of Arabidopsis thaliana with 6 samples.

Results

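Xyloglucan endotransglucosylase/hydrolases, abbreviated XTH, are secreted enzymes of the plant cell wall, and in Arabidopsis thaliana they form a family numbered XTH1 to XTH33. The 33 loci of that family were taken as the whole family, by locus identifier, out of the 38064 genes in the deposited table of counts. The RefSeq annotation (TAIR10.1) uses the same XTH number as symbol for 30 of the 33 and lists it as a synonym for the other 3, TCH4 (XTH22), XTR6 (XTH23) and EXGT-A3 (XTH27). RNA was sequenced from seedlings kept for 5 days in darkness at 22 °C on plates of MS medium, with 3 libraries of the wild type Col-0 and 3 of the double mutant bdh1-1 bdh2-1, called the mutant here. The series title places the BCL-domain homolog (BDH) proteins in SWI/SNF chromatin remodelling complexes, and the design text gives the basis of the mutants' phenotypes in darkness as the question. The sample labels name whole etiolated seedlings and the design text names hypocotyls, so the organ sampled is uncertain. The labels do not describe the lesions of the mutant alleles or whether the libraries came from separate plantings, so p-values measure the spread between these libraries, which may be technical.

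Xyloglucan is a branched glucan that coats and tethers cellulose microfibrils in the walls of growing dicot tissue. XTH enzymes cut a xyloglucan chain and either join the cut end to another xyloglucan chain, which is endotransglucosylation, or pass it to water, which is hydrolysis. Both reactions change how wall polymers are linked while a cell enlarges, and the dark-grown hypocotyl is a classical case of growth by cell enlargement. Most members are regarded as transglucosylases, while XTH31 and XTH32 are known for hydrolase activity. The cut is made by an active site whose core carries 3 acidic residues, glutamate, aspartate and glutamate.

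The codons of that core are shown first because they set 1 strongly changed member, XTH11, apart from the rest. Each line below gives 9 codons of the coding strand from the RefSeq TAIR10.1 genome, aligned to the site of XTH4, with the codons of the 3 acidic positions in capitals. The first member shown is XTH11. XTH20, XTH7, XTH17, XTH18 and XTH31 were higher in the mutant, and XTH4 and XTH24 are abundant members that did not pass the test.
XTH11: gatGAGctcTGTttcCAGatcttggga
XTH20: gatGAAataGATtttGAGttcttggga
XTH7: gacGAGcttGATtttGAGttcttagga
XTH17: gatGAGatcGATttcGAGttcttggga
XTH18: gatGAGattGATttcGAGttcttagga
XTH31: gatGAGgtcGATatcGAGtttctaggg
XTH4: gacGAGataGACtttGAGttccttgga
XTH24: gatGAGattGATtttGAGttcttgggt
Translated, 32 of the 33 members hold glutamate, aspartate and glutamate at the capitalised codons. XTH11 is the exception and holds 1 of the 3 acidic residues, with the residue substitutions D4C and E6Q relative to XTH4, counted from 1 at the first codon printed. The XTH11 site lies at chr3:18007740-18007766 on the plus strand, in exon 3 of 4 (TAIR10.1). The XTH20 site lies at chr5:19482565-19482591 on the plus strand, in exon 2 of 3.

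The labels were checked on the mutated loci, AT4G22320 and AT5G55210, which were assigned to the BDH names from memory of the literature. Counts at AT4G22320 ran from 143 to 169 across the wild type and from 8 to 15 across the mutant. At AT5G55210 they ran from 575 to 755 and from 7 to 22, so the ranges of the genotypes lay apart at both loci. Libraries held between 40876788 and 44982000 counts, and 20791 genes had enough counts to be tested. Of 15 root markers, namely 7 of root hairs and 8 of root endodermis, cap and meristem, 0 were at or under 3 counts in every library. Their abundance differed widely, with 4 to 12 counts per library for WOX5, 4 to 28 for BRN1 and 6762 to 11190 for CASP1. Of the 7 root hair markers, EXPA18 and LRX1 had too few counts to be tested, and 0 of the others passed the test in edgeR. Of the other 8 root markers 1 fell, SHR (log2 fold change -0.48, edgeR adjusted p 0.00921), and 0 rose. The summed level of the root hair markers was 5.95 to 12.2 CPM in the wild type and 7.23 to 8.54 CPM in the mutant. CPM stands for counts scaled to a common library size, with TMM factors. The highest sum was in wild-type replicate 2. RHS10 weighed heavily in the sum and was even, at 5.07, 5.15 and 4.84 CPM in wild-type replicates 1, 2 and 3. In the same libraries PRP3 had 14, 144 and 8 counts, EXPA7 4, 53 and 0, LRX1 2, 44 and 8, and EXPA18 0, 20 and 0. COBL9 and RSL4 varied less. All 3 markers of etiolated seedlings, PORA, HLS1 and PIF3, were present and called higher in the mutant, as were 12.1% of all tested genes. Summed transcripts of 4 seed storage genes reached 0.531 to 90.4 CPM in the wild type and 0.957 to 2.0 CPM in the mutant. Of the 4, 3 were called lower, against 11.3% of all tested genes, although the groups overlapped for each. Wild-type replicate 1 had 14 counts of CRA1, 4 of CRU3 and 2 of PAP85. The mutant libraries had 8 to 36, 12 to 32 and 4 to 16. The part of these 4 genes in the XTH results was not tested. In bulk RNA, a different number of cells of a type and a different amount of RNA per cell cannot be told apart.

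The family was mostly higher in the mutant. Of the 33 members 26 were tested, and 16 of these rose and 0 fell in edgeR's quasi-likelihood test with a Benjamini-Hochberg adjusted p under 0.05 over all tested genes. Among all tested genes 23.5% passed this threshold, 12.1% as higher and 11.3% as lower. The median log2 fold change (mutant over wild type) was 0.70 over the 26 tested members and 0.00 over all tested genes. The rises ran from a log2 fold change of 0.52 for XTH33 to 1.98 for XTH20, and 7 members rose at least 2-fold, a size that 2.71% of all tested genes reached with an adjusted p under 0.05. The lowest mutant library lay above the highest wild-type library in 16 of the 26 tested members, against 20.8% of all tested genes. These were the same 16 that rose, so this is not separate evidence for them. The reverse held for 2 of the 26, XTH6 and XTH25, against 20.5% of all tested genes. All 26 tested members would have passed the filter on the wild-type libraries alone, so no member entered the test only because it was high in the mutant. By number, 5 of 8 tested members of group I (XTH1 to XTH11), 8 of 12 of group II (XTH12 to XTH26) and 3 of 6 of group III (XTH27 to XTH33) rose.

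**Figure D1:**
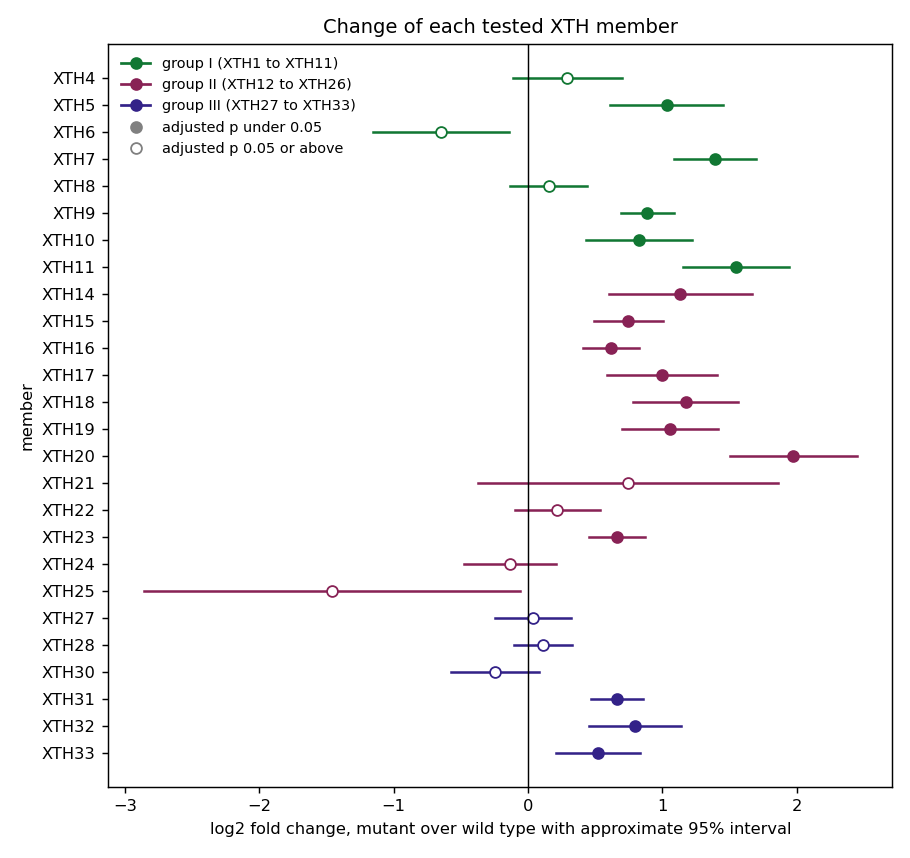
Log2 fold change, mutant over wild type, of each of the 26 tested members in order of their number, with points at the estimate, approximate 95% intervals as bars, colours for the numbered groups and filled points for an adjusted p under 0.05. All 16 filled points lie to the right of 0, between 0.52 and 1.98.

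Levels per length differed widely among members, and 4 genes made up most of the family's transcripts. Levels in this paragraph are CPM per kb of exon, as mean ± SD over 3 wild-type libraries. XTH24 (AT4G30270), known as MERI5 and active in meristematic and growing tissue, had the highest level at 1991 ± 232. XTH15 (AT4G14130), a gene used as a marker of the shade response, followed at 904 ± 91.8, and XTH4 (AT2G06850), an abundant transglucosylase of elongating tissue, at 794 ± 203, so that these neighbours in the order differed by less than the spread of XTH4. XTH30 (AT1G32170) stood at 515 ± 72.2 and XTH8, the fifth, at 115 ± 20.1. These 4 most abundant members kept the first 4 ranks, in the same order, in the mutant.

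Of the 5 most abundant members in the wild type only XTH15 rose. XTH15 stood at 1197, 1101 and 976 CPM in wild-type replicates 1, 2 and 3 and at 1960, 1784 and 1750 CPM in mutant replicates 1, 2 and 3. The groups lay far apart relative to their spread, at 1091 ± 111 against 1831 ± 113 CPM (SD, n = 3 each), and the log2 fold change was 0.75 (SE 0.12; edgeR adjusted p 0.00266). XTH15 overlaps AT4G14120 on the opposite strand, and that gene had 0.605 ± 0.128 CPM (SD, n = 3) in the wild type. XTH24 had 2440, 2673 and 2114 CPM in the wild type and 2210, 1789 and 2587 CPM in the mutant. Its groups overlapped, with a log2 fold change of -0.13 and an approximate 95% interval from -0.47 to 0.21. XTH4 had 1092, 1661 and 1096 CPM against 1519, 1350 and 1844 CPM, and wild-type replicate 2 lay within the mutant range. The XTH4 log2 fold change was 0.29 with an interval from -0.11 to 0.70, and without wild-type replicate 2 it was 0.53 and passed the threshold (edgeR adjusted p 0.0261). XTH30, linked to salt responses, had a log2 fold change of -0.24 (interval -0.57 to 0.09), and XTH8 one of 0.15 (interval -0.13 to 0.44).

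**Figure D2:**
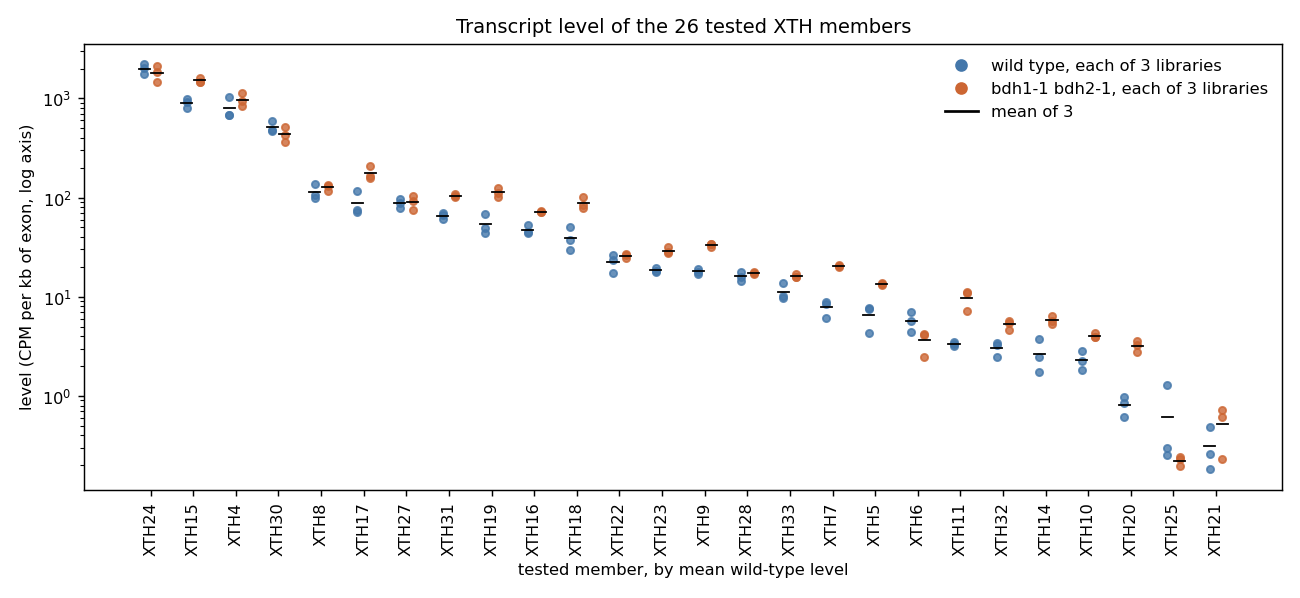
Level of each of the 26 tested members in CPM per kb of exon (log axis), ordered by the wild-type mean, with a point for each of 3 wild-type and 3 mutant libraries and a black line at each mean. XTH24, XTH15, XTH4 and XTH30 lie above all others in both genotypes, and XTH15 is the one of these 4 whose groups do not overlap.

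The composition of the family's transcripts shifted accordingly. The summed level of all 33 members was 6160, 7237 and 5609 CPM in the wild-type libraries and 7524, 6656 and 8292 CPM in the mutant libraries, so the sums of the 2 groups overlapped. XTH24 made up 39.6%, 36.9% and 37.7% of the sum in the wild type and 29.4%, 26.9% and 31.2% in the mutant. XTH15 made up 19.4%, 15.2% and 17.4% in the wild type and 26.05%, 26.8% and 21.1% in the mutant. The 16 members that rose, which were picked by this comparison so that no test applies, made up 25.0 ± 1.71% of the sum in the wild type and 36.9 ± 3.65% in the mutant (SD, n = 3 each).

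**Figure D3:**
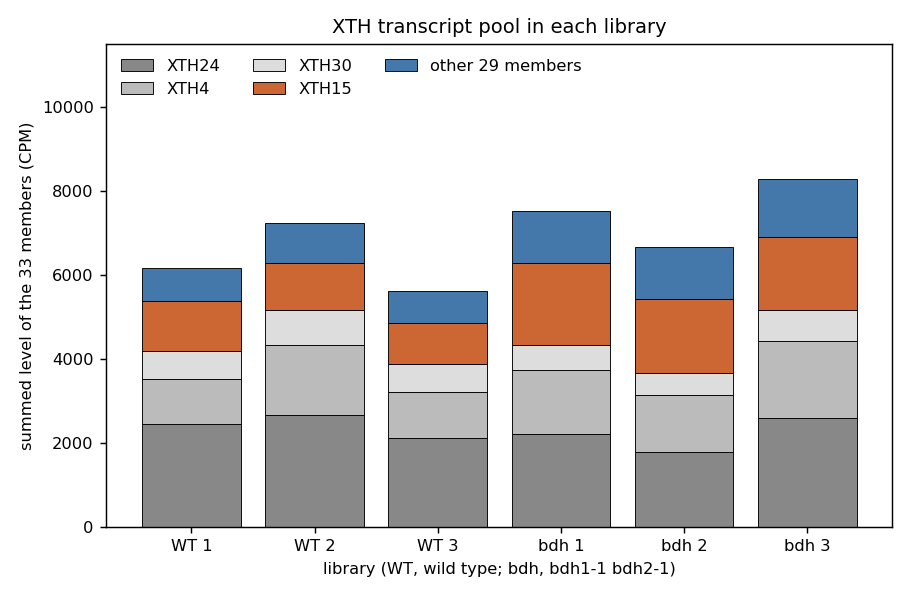
Summed level of the 33 members in CPM in each library, as stacked bars for XTH24, XTH4, XTH30, XTH15 and the other 29 members. The totals overlap between genotypes (5609 to 7237 CPM in the wild type, 6656 to 8292 CPM in the mutant), while the XTH15 section is taller in each mutant bar.

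XTH17, XTH18, XTH19 and XTH20, closely related genes of group II known for expression in the growing or maturing root, rose together. XTH20 (AT5G48070), described for the stele of mature root, had the largest rise of the family, from 1.19, 1.36 and 0.867 CPM in wild-type replicates 1, 2 and 3 to 4.603, 3.85 and 4.998 CPM in mutant replicates 1, 2 and 3. The raw counts behind these values were 54, 60 and 40 against 202, 162 and 216, and the log2 fold change was 1.98 (SE 0.21; edgeR adjusted p 0.000521). The lowest mutant library thus lay well above every wild-type library for this scarce transcript. XTH18 (AT4G30280), whose silencing is known to shorten root epidermal cells, had 46.8, 63.2 and 37.6 CPM against 98.0, 106 and 128 CPM (log2 fold change 1.17, SE 0.18, edgeR adjusted p 0.00242). XTH19 (AT4G30290) had 59.2, 92.0 and 65.6 CPM against 134, 149 and 168 CPM (log2 fold change 1.06, SE 0.16, edgeR adjusted p 0.00242). XTH17 (AT1G65310), with the highest level of these 4, had 89.7, 145 and 94.2 CPM against 203, 196 and 258 CPM (log2 fold change 1.00, SE 0.18, edgeR adjusted p 0.0057). Wild-type replicate 2 was the highest of its group in each of the 4, and it still lay below every mutant library.

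These 4 genes are alike in sequence, which matters for how reads are assigned. Coding sequences were 92.2% identical between XTH17 and XTH18, 89.0% between XTH18 and XTH19, and 83.9% to 85.6% between XTH20 and the other 3. No match of 100 bases or longer between a member's transcript and another locus reached 95% identity over its whole length. The nearest was a stretch of 197 bases at 94.9% identity between XTH17 and XTH18, so some reads of these genes may have been hard to place and their single values carry that uncertainty.

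The likeness of XTH17 and XTH18 extends upstream of the gene, although they lie on different chromosomes. The 250 bases before each annotated start are shown, 5′ to 3′ on the strand of the gene, from chr1:24256804-24257053 (plus strand) for XTH17 and chr4:14827212-14827461 (minus strand) for XTH18 (RefSeq TAIR10.1). Capitals mark matches to CACATG, on either strand, a hexamer known as a binding sequence of phytochrome-interacting factors.
XTH17: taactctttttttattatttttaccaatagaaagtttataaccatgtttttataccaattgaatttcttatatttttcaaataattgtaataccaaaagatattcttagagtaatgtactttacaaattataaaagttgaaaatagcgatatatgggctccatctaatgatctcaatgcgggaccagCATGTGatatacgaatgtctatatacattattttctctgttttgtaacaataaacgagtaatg
XTH18: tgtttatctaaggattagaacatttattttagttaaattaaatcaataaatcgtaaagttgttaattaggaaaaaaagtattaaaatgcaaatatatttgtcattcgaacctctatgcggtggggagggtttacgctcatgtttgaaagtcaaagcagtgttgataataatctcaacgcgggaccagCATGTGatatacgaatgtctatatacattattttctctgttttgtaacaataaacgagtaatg
The last 73 bases of the windows are identical, and the hexamer falls within them. Over all aligned bases of the windows, identity was 80.3% between XTH17 and XTH18, 76.6% between XTH18 and XTH19 and 75.5% between XTH17 and XTH19. Gaps were left out, so these values cover 223, 205 and 200 of the 250 bases. The longest run that XTH19 shared with either was 9 bases. By the same measure XTH15 and XTH16 reached 69.1% with a longest shared run of 8 bases. The values for XTH19 thus do not by themselves show likeness upstream. On both strands of the same window 3 motifs were searched. They were the G-box CACGTG, the hexamer CACATG of the capitals, and a brassinosteroid-response core spelled CGTGTG or else CGTGCG, whose matches may overlap. CACATG was in 5 of the 33 members (15.2%) and in 11.1% of all 27443 protein-coding genes, CACGTG in 0 of 33 and in 6.49%, and the brassinosteroid-response core in 4 of 33 (12.1%) and in 6.71%. Among members with CACATG, XTH17, XTH18 and XTH33 rose, XTH25 did not pass the test and XTH26 was not tested. The matches of XTH17 and XTH18 lie in the shared 73 bases and are not separate instances. Among members with the brassinosteroid-response core, XTH23 rose, XTH8 and XTH25 did not pass the test and XTH2 was not tested. Over the family 16 of 26 tested members rose, and whether a motif goes with a rise was not tested.

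Members side by side on chromosome 4 were called together in 1 cluster and in part in another. XTH24, XTH18 and XTH19 lie in this order on the minus strand of chromosome 4, from 14819192 to 14830224, and XTH18 and XTH19 rose while XTH24 did not pass the test. XTH23 and XTH14 lie next to each other and both rose. XTH23 (AT4G25810), a group II gene near TCH4 in sequence, had 26.5, 25.0 and 24.6 CPM against 38.7, 37.8 and 44.0 CPM (log2 fold change 0.66, SE 0.09, edgeR adjusted p 0.00194). XTH14 (AT4G25820), an enzyme described in roots, had 2.03, 4.38 and 2.88 CPM against 6.22, 6.71 and 7.50 CPM (log2 fold change 1.14, SE 0.24, edgeR adjusted p 0.0101).

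In the cluster of XTH12, XTH13, XTH25 and XTH22 on chromosome 5, XTH12 and XTH13 were not tested, and XTH22 and XTH25 did not pass the test. XTH22, the touch-induced gene TCH4, had 41.7, 37.1 and 27.3 CPM in the wild type and 41.7, 38.9 and 43.2 CPM in the mutant. Its groups overlapped, with a log2 fold change of 0.22 and an interval from -0.10 to 0.53. XTH25 had 16, 68 and 14 counts against 12, 12 and 10, and the log2 fold change of -1.46 (edgeR adjusted p 0.116) shrank to -0.31 without wild-type replicate 2. The same library had 16 of the 22 counts of XTH12 and all 4 counts of XTH13, and it had the highest summed level of the root hair markers, although not the highest level of COBL9 or RSL4 among them. The part of root hair content in these values was not tested.

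XTH16 (AT3G23730), the closest relative of XTH15 at 81.7% coding identity and also a shade-response gene, had 53.4, 63.8 and 54.5 CPM in the wild type and 86.7, 87.8 and 88.6 CPM in the mutant. The mutant libraries were nearly alike, and the log2 fold change was 0.62 (SE 0.09; edgeR adjusted p 0.00252).

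In group I, XTH7 and XTH11 rose most. XTH11 (AT3G48580) had 4.0, 4.23 and 4.40 CPM in wild-type replicates 1, 2 and 3 and 13.8, 14.1 and 8.98 CPM in mutant replicates 1, 2 and 3. The log2 fold change was 1.55 (SE 0.18; edgeR adjusted p 0.00066), so the member without the complete acidic core shown above was second to XTH20 in the size of its rise. XTH7 (AT4G37800) had 11.3, 10.98 and 7.89 CPM against 26.5, 25.5 and 27.1 CPM (log2 fold change 1.39, SE 0.14, edgeR adjusted p 0.000359). XTH6 (AT5G65730), the member nearest to XTH7 in coding sequence (71.5% identity), did not pass the test. XTH6 had 10.3, 8.38 and 6.42 CPM against 6.11, 3.66 and 6.22 CPM, with no overlap between groups, as for 20.5% of all tested genes as lower. Its log2 fold change was -0.65 (SE 0.23; edgeR adjusted p 0.0622), and with exonic length taken into account it passed the threshold (edgeR adjusted p 0.036).

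The other 3 risen members of group I were XTH5, XTH9 and XTH10. XTH9 (AT4G03210) had 27.2, 29.1 and 26.1 CPM against 52.4, 51.6 and 48.8 CPM, with little spread in either group (log2 fold change 0.89, SE 0.09, edgeR adjusted p 0.000374). XTH5 (AT5G13870), a close relative of XTH4, had 8.27, 14.96 and 14.5 CPM against 24.97, 26.2 and 26.01 CPM (log2 fold change 1.03, SE 0.19, edgeR adjusted p 0.00563). XTH10 (AT2G14620) had 3.85, 3.03 and 2.47 CPM against 5.88, 5.38 and 5.32 CPM (log2 fold change 0.83, SE 0.18, edgeR adjusted p 0.011), a call that ended when mutant replicate 1 was left out (edgeR adjusted p 0.0548).

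In group III, the 2 members known for hydrolase activity rose. XTH31 (AT3G44990), which contributes to xyloglucan content in roots, had 85.2, 93.7 and 96.4 CPM in the wild type and 144, 151 and 142 CPM in the mutant (log2 fold change 0.66, SE 0.09, edgeR adjusted p 0.00132). XTH32 (AT2G36870) had 4.69, 6.19 and 6.51 CPM against 10.3, 11.04 and 8.89 CPM (log2 fold change 0.80, SE 0.15, edgeR adjusted p 0.00677). For XTH27, described in vein tracheary elements, the log2 fold change was 0.04 with an interval from -0.25 to 0.32. For XTH28, described in stamen filaments, it was 0.11 with an interval from -0.10 to 0.33. XTH33 (AT1G10550), a member described at the plasma membrane, had 11.7, 16.8 and 12.3 CPM against 19.0, 19.1 and 20.5 CPM (log2 fold change 0.52, SE 0.14, edgeR adjusted p 0.0254). It lost the call when wild-type replicate 1 or 3 or mutant replicate 1 or 3 was left out, with adjusted p values from 0.0651 to 0.0936.

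The other 7 members were too scarce to test and are given as counts, with 3 counts as the floor. XTH1 had 0 counts in 5 libraries and 2 in mutant replicate 2. XTH3, known for joining xyloglucan to cellulose, had at most 2 counts in any library. XTH2 had 2 to 3 counts in the wild type and 2 to 6 in the mutant. XTH29 had 0 counts in each wild-type library and 2, 6 and 2 in mutant replicates 1, 2 and 3. XTH12 and XTH13 were near 0 outside wild-type replicate 2. XTH26, a root hair gene, had 0, 14 and 2 counts in the wild type and 2, 14 and 4 in the mutant. Differences in these 7 were not detectable at this depth. XTH21, described for primary root growth, was tested at 10 to 36 counts per library and its groups overlapped (log2 fold change 0.74, interval -0.37 to 1.86).

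Wild-type replicate 2 was the highest wild-type library for 17 of the 26 tested members and for 37.7% of all tested genes. Mutant replicate 3 was the highest mutant library for 17 of the 26 and for 37.7% of all tested genes. XTH members are short, with 885 to 1922 bases of exon and a median of 1263 against 1758 for all tested genes, and short transcripts tended to be higher in the mutant (Spearman correlation -0.40 over 16773 genes, whose values depend on each other). After offsets removed the trend over exonic length from every library, 19.9% of all tested genes passed the threshold, 10.1% as higher and 9.76% as lower. The same 16 members rose and XTH6 fell in that fit. The median log2 fold change of the 26 tested members was then 0.58 in place of 0.70, and that of the 16 was 0.84 in place of 0.94.

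**Figure D4:**
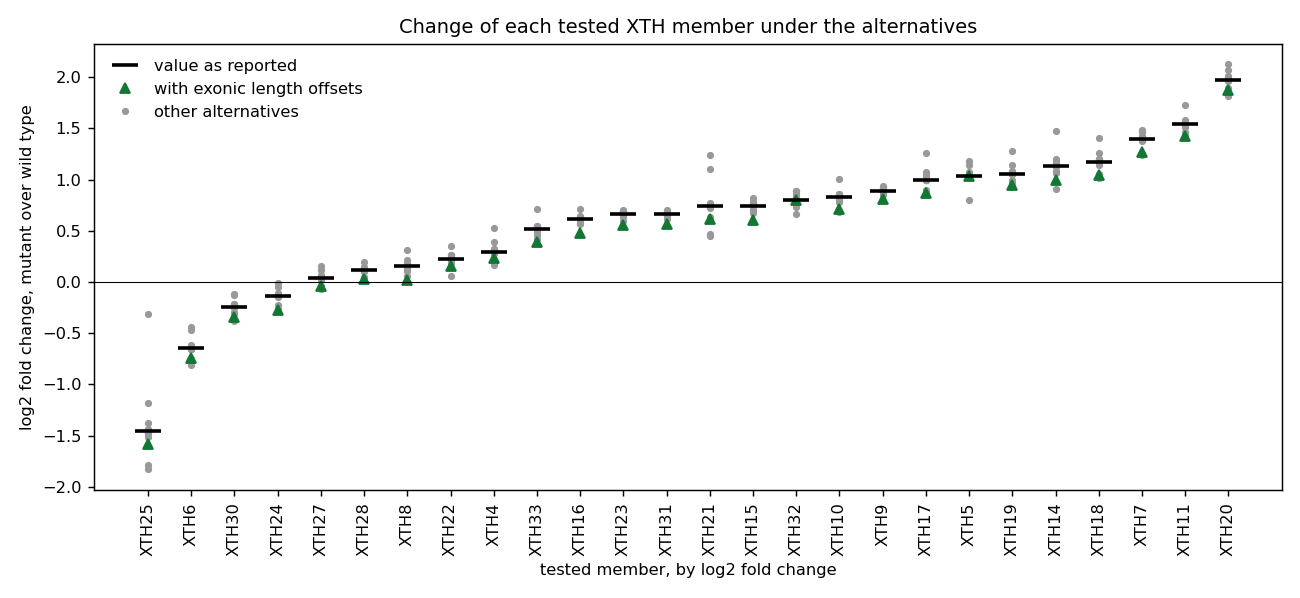
Log2 fold change, mutant over wild type, of each tested member as reported (black bar), with offsets for exonic length (green triangle) and under the 13 other alternatives (grey points). All points of the 16 risen members stay above 0, and the values with length offsets lie at or below the reported ones for most members.

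A pair of lists covered other steps of the xyloglucan pathway. Of 16 genes of xyloglucan synthesis, 4 rose and 2 fell, where 12.1% of all tested genes rose and 11.3% fell, and the median log2 fold change was 0.11. Whether either list differed from the XTH genes was not tested. AXY4, which adds acetyl groups to xyloglucan, had 17.2, 24.2 and 17.7 CPM in the wild type and 32.0, 28.4 and 33.8 CPM in the mutant, and rose with a log2 fold change of 0.67 and an edgeR adjusted p of 0.00948. The galactosyltransferase gene XLT2 (0.52) and the xylosyltransferase gene XXT5 (0.40) also rose, with edgeR adjusted p values of 0.0266 and 0.029. The glucan synthase gene CSLC8 (-0.49) and XXT4 (-0.37) fell, with edgeR adjusted p values of 0.0105 and 0.0299, and neither passed the threshold with length offsets. Apart from AXY4, these calls were lost in at least 2 of 14 alternatives each. CSLC4, the main backbone synthase gene, stood at 179 ± 28.5 against 199 ± 12.8 CPM (SD, n = 3 each) and did not pass the test. Of 6 genes for enzymes that trim xyloglucan, 0 rose and 2 fell, beside the same 12.1% and 11.3% of all tested genes, and their median log2 fold change was -0.06. BGAL10, the beta-galactosidase of xyloglucan, stood at 155 ± 15.7 CPM in the wild type and 109 ± 14.3 CPM in the mutant (SD, n = 3 each), and fell with a log2 fold change of -0.51 and an edgeR adjusted p of 0.0144. BGLC1, a beta-glucosidase, stood at 68.5 ± 2.72 against 50.3 ± 2.99 CPM (SD, n = 3 each), and fell with a log2 fold change of -0.45 and an edgeR adjusted p of 0.00717. Leaving out mutant replicate 1 removed both calls, with edgeR adjusted p values of 0.0746 and 0.0534, and leaving out wild-type replicate 1 removed that of BGAL10 (edgeR adjusted p 0.0552).

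For the same comparison, the authors' deposited table lists an adjusted p for 30 of the 33 members. By the authors' deposited table, the adjusted p was under 0.05 for 17 members, against 24.0% of all genes listed there, 16 of them higher (11.9% of all genes) and XTH6 lower. The 16 higher ones are the 16 that rose here, which is not independent evidence since the libraries are the same.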

How the data were processed

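Libraries were made from polyadenylated RNA with a protocol that keeps strand and were run on the DNBSEQ platform, per the labels' protocols. The submitters' processing notes name STAR 2.7.10b, featureCounts, Subread 2.0.3, DESeq2 1.38 and the build TAIR10, without roles or settings. Read length, annotation and whether counting used strand are not given in the sources used here. The authors deposited raw counts for each gene and library. They also deposited, per the file headers, a table of their own comparison with the mean normalized signal, the log2 fold change and its error, and the p-value before and after adjustment. Of count values from 1 to 20, 74.8% were even, so low counts may not stand for single molecules. Among members that rose, every count was also even for XTH5, XTH7, XTH9, XTH10, XTH16, XTH17 (4054 to 11136), XTH20 (40 to 216) and XTH32. The other risen members, XTH15 among them, had odd counts too, as did XTH24. This limit may thus hold above 20 counts for many of the risen members.

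The counts went into edgeR 4.0.16 (R 4.3.3) with filterByExpr, TMM factors and the quasi-likelihood test (glmQLFit, glmQLFTest), without covariates. P-values were adjusted by Benjamini-Hochberg over 20791 genes, with 0.05 as the threshold. SE values were obtained from the log2 fold change and the F statistic, and 95% intervals from the SE and a t quantile, so both are approximate. Symbols, exonic lengths and sequences came from RefSeq TAIR10.1. Coding and protein sequences were aligned with mafft, active sites were found from the conserved site of XTH4 in that alignment, and near copies were searched with blastn. Members with an adjusted p under 0.05 were named in full, then the 5 highest levels per kb, then members too scarce to test, and at most 3 genes per pathway list and direction. XTH6, CSLC4 and the other members and genes without a call were described after their values were seen. The family and the gene lists were chosen with earlier results of these data known. The settings tried in place of the main ones were RLE or upper-quartile factors, DESeq2 1.42.0, no filter on low counts, a minimum of 10 counts in all libraries, a block for replicate number, offsets for exonic length (spline with 4 degrees of freedom), halved counts, and leaving out 1 library at a time.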

Additional observations from a re-analysis of the deposited data

How the results depend on the processing

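The count of members that rose was 16 with RLE and upper-quartile factors, DESeq2, no filter, at least 10 counts in every sample, counts halved and length offsets, and the 16 were the same genes each time. It ranged from 14 to 17 when 1 library was left out. XTH33 was lost without either of 2 wild-type or 2 mutant libraries and XTH10 without mutant replicate 1, while XTH4 was gained without wild-type replicate 2. The count of members that fell, 0 as reported, was 1 (XTH6) with DESeq2, no filter and length offsets, and 0 to 1 when 1 library was left out.

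Same-numbered libraries did not deviate together (correlations of 0.05, -0.28 and -0.17). The largest correlation across groups was 0.31, between wild-type replicate 2 and mutant replicate 3. With 3 libraries per group these values cannot decide whether any libraries were paired, and the labels state no pairing. With the replicate block 15 members rose (XTH33 was lost, adjusted p 0.0595), 2090 genes differed in all, 1172 higher and 918 lower, and 1 synthesis gene passed. Without 1 library, genes that differed numbered 1811 (mutant replicate 1) to 5558 (wild-type replicate 2), 1066 to 2842 higher and 745 to 2716 lower. The synthesis list then had 2 to 6 genes past the threshold and the trimming list 0 to 2. XTH27, not past the threshold in any setting, had a log2 fold change of 0.04 as reported, -0.038 with length offsets, and -0.071 to 0.15 when 1 library was left out. Of 363 values of single members under the alternatives, 349 kept their direction and side of the threshold. The cause of the lost calls was not tested.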
